A study of Mus musculus with 4 samples.

Results

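The genes described here encode proteins of the extracellular matrices that lie on the sensory epithelia of the inner ear. They are Oc90 and Otol1 of the otoconia, Otog and Otogl (the otogelins), Tecta, Tectb and Ceacam16 of the tectorial membrane, Otoa of the matrix attachment sites, and Coch and Otos of the cochlear connective tissue. The 10 genes were chosen by name, and all 10 were found among the 34866 genes of the deposited table. The tissue was the otic vesicle, the epithelial sac that becomes the inner ear, taken at embryonic day 11.5 from mice of the C57/BL6 strain. RNA sequencing gave 2 libraries of wild-type embryos (WT 1 and WT 2) and 2 of Meis2 mutants, titled as knockouts (KO 1 and KO 2). Meis2 encodes a homeodomain transcription factor. The labels give neither the allele, nor any Cre driver, nor how many embryos or vesicles were pooled. Pairs of values below follow the replicate numbers, with number 1 first. Values are transcript abundances (TPM) scaled for transcript length and to a total of 1000000 per library, so levels of different genes can be compared within a library. TPM keeps no sequencing depth, so no counting error can be given.

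Each sensory organ of the inner ear is covered by an acellular gel that couples movement to hair cells. Over the utricle and saccule the gel carries otoconia, calcium carbonate crystals built on an organic core of otoconin 90 and the collagen-like protein otolin. Over the semicircular canal cristae it forms the cupula, and over the cochlear hair cells the tectorial membrane, a lattice of collagen, tectorins, otogelins and CEACAM16. Otoancorin, the product of Otoa, sits where such gels attach to the surface of non-sensory cells. At the otic vesicle stage the epithelium has not yet formed these mature structures, and Oc90 is known as an early product of the non-sensory otic epithelium.

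RefSeq promoters (GRCm38.p6, 250 bases before to 50 after the start) were matched by symbol for 7 of the 10 genes, 8 promoters in all, since Tecta has 2. No promoter was matched for Oc90, Otogl or Ceacam16, so the counts below do not cover them. The 8 promoters were searched on both strands for 3 cores of 6 letters, none of which contains another. The core bound by MEIS proteins, TGACAG, was in 3 of the 8 promoters of the matrix genes, and in 19.2% of all 32851 promoters of the same length (300 bases). The core bound by SOX proteins, among them the otic factors Sox2 and Sox10, has the letters ACAAAG and was in 2 of the 8 promoters and in 18.7% of all promoters. The core bound by GATA proteins, among them the otic factor Gata3, has the letters AGATAA and was in 1 of the 8 promoters, that of Tectb, and in 11.2% of all promoters. Shown are the 250 bases upstream of Otog and of Otol1, the second most abundant member, with every match in capitals. Otog stood higher in KO without passing the adjusted threshold given below, and its KO 1 value was close to that of WT 1. Neither window holds bases of an annotated exon. The Otog window is chr7:46240737-46240986 and the Otol1 window chr3:70007363-70007612, both on the plus strand.
Otog: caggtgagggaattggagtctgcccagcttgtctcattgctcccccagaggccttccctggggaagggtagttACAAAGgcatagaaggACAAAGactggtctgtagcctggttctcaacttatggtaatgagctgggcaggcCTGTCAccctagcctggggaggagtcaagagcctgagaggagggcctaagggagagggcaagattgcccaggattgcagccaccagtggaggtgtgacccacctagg
Otol1: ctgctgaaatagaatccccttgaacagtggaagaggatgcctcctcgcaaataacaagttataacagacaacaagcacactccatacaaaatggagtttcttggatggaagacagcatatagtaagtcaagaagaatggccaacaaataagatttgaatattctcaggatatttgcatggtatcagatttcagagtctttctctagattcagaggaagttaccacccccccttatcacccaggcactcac
The Otog window held 2 SOX cores, starting 177 and 161 bases before the start, and 1 MEIS core on the opposite strand, 107 bases before it. The Otol1 promoter held none of the 3 cores. That of Otoa held none either, but its window of 250 bases (chr7:121083174-121083423) lies wholly in annotated Otoa exons. It is inside the gene, which starts at 121081650, so the sequence before that start was not searched. The other MEIS matches lay 224 bases before a Tecta start, and after the start of Otos. A match of 6 letters is a description of the sequence and shows no binding.

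As a check of the tissue, all 20 otic epithelium markers were present, with summed levels of 1492 and 1531 TPM in WT and 1288 and 1354 TPM in KO. Other cells were present too. The 17 periotic mesenchyme markers summed to 1224 and 1045 TPM in WT and 1653 and 1147 TPM in KO, and the 16 otic neuron markers to 382 and 639 TPM in WT and 305 and 952 TPM in KO. The neuron sum was thus higher in both libraries numbered 2. Libraries also differed in a Y-linked transcript, with Eif2s3y at 13.4 and 0.17 TPM in WT and listed at 0 and at 58.1 TPM in KO. Meis2 itself was at 79.0 and 88.7 TPM in WT and 73.2 and 76.6 TPM in KO, and without knowing which exons were removed this level does not check the genotype labels. In a dissected tissue, fewer cells of a type and less RNA per cell cannot be told apart.

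The otoconial genes dominated the matrix programme at this stage. Oc90 (ENSMUSG00000015001.17, chromosome 15, 65876053 to 65912397, GRCm38) ranked between 153 and 225 among the 21782 protein-coding genes of the table, and made up 94.4% of the summed TPM of the 10 genes in WT 1 and WT 2, 90.2% in KO 1 and 90.4% in KO 2. Otol1 (ENSMUSG00000027788.6, chromosome 3, 70007613 to 70028708) followed at ranks from 4488 to 5704. Otog (ENSMUSG00000009487.10, chromosome 7, 46240987 to 46311434) came next in every library. Otogl (ENSMUSG00000091455.4, chromosome 10, 107760531 to 107912134) stood above Otoa (ENSMUSG00000034990.15, chromosome 7, 121081650 to 121163097) in both WT libraries, and Otoa above Otogl in both KO libraries. The 5 remaining genes had means under 1 TPM. Between 5 and 6 of the 10 genes reached 1 TPM in any library, the sixth being Tecta in KO 1. At this age the otoconial transcripts were thus far more abundant than those of the tectorins and Ceacam16.

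**Figure D1:**
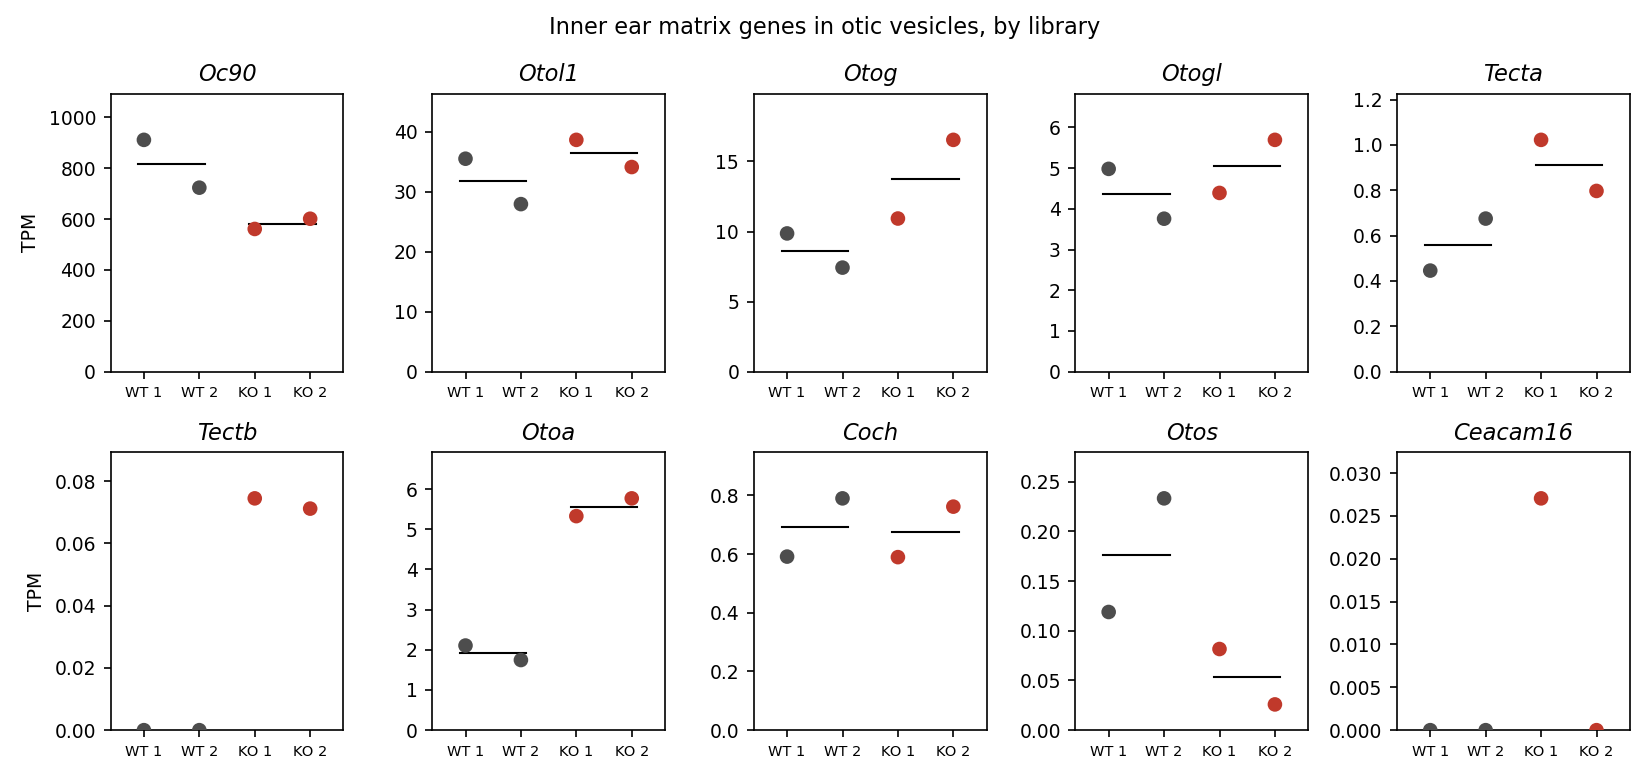
TPM of each matrix gene (vertical axis, from 0, with its own scale per panel) in each library (horizontal axis). Points are libraries and lines the means of 2 libraries, left out for genes listed at 0 in a library. Oc90 lay lower and Otoa higher in both KO libraries, while Otol1 and Otogl overlapped between genotypes.

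Differences between genotypes were tested with limma on log2(TPM + 1) across the 14496 genes that averaged 1 TPM or more, of which 5 were matrix genes. No gene of the table passed the adjusted threshold of 0.05 (0 of 14496, 0%), and 507 genes (3.5%) had an unadjusted limma p under 0.05. Of the 5 tested matrix genes 0 passed over all genes, and 2 had an unadjusted p under 0.05. These were Otoa, higher in KO (2.09% of all genes), and Oc90, lower in KO (1.41% of all genes). Both KO libraries lay on 1 side of both WT libraries for 3 of the 5, against 29.8% of all genes tested. Above WT lay 2 of the 5 (19.2% of all genes), and below it 1 (10.5% of all genes). With 4 of 5 differences above 0, against 61.6% of all genes, the median log2 difference was 0.20, and it was 0.035 over all genes tested. An exact permutation test of 2 libraries against 2 cannot give a two-sided p below 0.333. The limma p-values set each difference against the spread between these libraries, moderated over all tested genes. Nothing in the labels says that the libraries came from separate litters, so that spread may not cover the spread between litters.

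Oc90, the principal protein of the otoconial core, stood lower in KO. Its levels were 912 and 724 TPM in WT, and 561 and 602 TPM in KO. Both KO libraries lay below both WT libraries, and the WT libraries differed from each other by more than the KO libraries did. The means were 818 ± 133 TPM (SD, n = 2) and 582 ± 28.5 TPM (SD, n = 2), a ratio of KO to WT of 0.711. The log2 difference was -0.48 (SE 0.13), with an unadjusted limma p of 0.017 and an adjusted p of 1.00, so it did not pass. The unadjusted limma p was 0.065 with no filter and 0.077 without KO 1. KO 1 differed from WT 1 by -0.70, and KO 2 from WT 2 by -0.27. Leaving out WT 1 gave -0.32, the smallest size of the 4 such fits, and leaving out WT 2 gave -0.65. In the ordering of all tested genes by difference, 2.39% lay below Oc90.

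Most otic epithelium markers also stood lower in KO. Of the 20, 2 had a log2 difference above 0, against 61.6% of all genes tested, and 18 had one below 0 (median -0.21). Both KO libraries lay below both WT libraries for 13 of the 20 (10.5% of all genes). By limma, 7 were lower at an unadjusted p under 0.05 (1.41% of all genes), and 0 passed the adjusted threshold. None of the 20 was at 0 in any group. This and the other marker lists were chosen with earlier results of these data known, so counts over them only describe the listed genes. Lmx1a, a LIM-homeodomain factor of the non-sensory otic epithelium, was at 71.8 and 73.9 TPM in WT and 59.8 and 60.2 in KO. Epcam, an epithelial adhesion molecule, was at 209.8 and 197.8 TPM in WT and 180.2 and 188.0 in KO. The ratio of Oc90 to Epcam TPM was 4.35 and 3.66 in WT and 3.12 and 3.20 in KO, and that of Oc90 to Lmx1a was 12.7 and 9.79 in WT and 9.38 and 9.99 in KO. Taking each of the 20 markers in turn, the ratio was lower in both KO libraries for 10, among them Epcam and Sox10, and overlapped between genotypes for the other 10, among them Lmx1a, Krt8 and Gata3. These ratios were computed after the values were seen. The part that the epithelial share of the tissue had in the Oc90 difference was not tested.

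Otol1, which encodes otolin, a secreted collagen-like partner of otoconin 90 in the crystal core, did not share the direction of Oc90. Its levels were 35.5 and 27.9 TPM in WT and 38.7 and 34.1 TPM in KO. KO 2 fell short of WT 1, so the groups overlapped. KO exceeded WT by 0.20 on the log2 scale (SE 0.15; limma adjusted p = 1.00), and by 0.03 without WT 2. Within each library the ratio of Oc90 to Otol1 TPM was 25.7 in WT 1 and 25.9 in WT 2, and 14.5 in KO 1 and 17.6 in KO 2. The WT libraries thus held nearly the same ratio although both genes were higher in WT 1, and both KO libraries were well below them. The pairs for these ratios were chosen after the values were seen, and no test was made across all pairs of genes.

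The otogelins, large cysteine-rich relatives of secreted mucins that link the acellular gels, differed from each other. For Otog the WT levels were 9.86 and 7.43 TPM and the KO levels 10.9 and 16.5 TPM. KO 2 stood apart, and KO 1 exceeded WT 1 by little. KO exceeded WT by 0.60 on the log2 scale (SE 0.24; limma adjusted p = 1.00), and the difference was 0.32 without KO 2, 0.41 without WT 2 and 0.87 without KO 1. KO 1 exceeded WT 1 by 0.13, and KO 2 exceeded WT 2 by 1.06.

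Otogl, the otogelin-like gene, had WT levels of 4.98 and 3.76 TPM and KO levels of 4.39 and 5.69 TPM. WT and KO overlapped, with a log2 difference of 0.17 (SE 0.21; limma adjusted p = 1.00) that was 0.0061 without WT 2 and 0.02 without KO 2. The ratio of Otog to Otogl was 1.98 in WT 1 and 1.98 in WT 2, against 2.49 in KO 1 and 2.91 in KO 2. As with the otoconial pair, the ratio was more even between the WT libraries than either gene was. Other pairings of these genes would be similarly even, since they shifted alike between the WT libraries. On the log2 scale WT 2 minus WT 1 was -0.33 for Oc90, -0.34 for Otol1, -0.37 for Otog and -0.33 for Otogl. It was -0.18 for Otoa, and evenness was not computed across all pairs of genes.

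**Figure D2:**
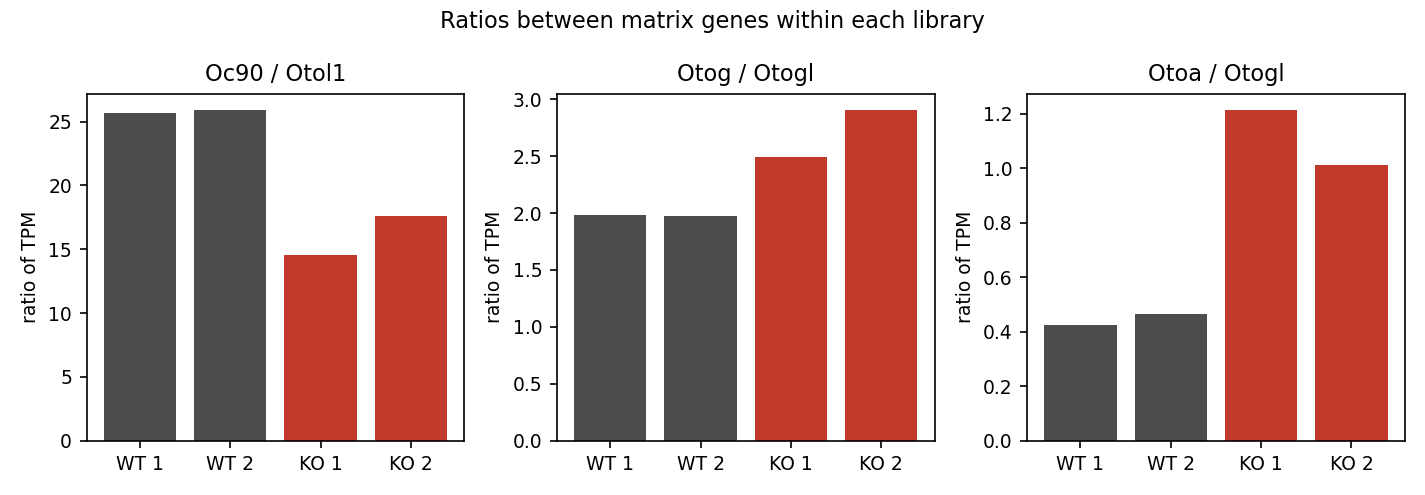
Ratio of TPM of 2 matrix genes within each library (vertical axis, from 0), by library. The ratio of Oc90 to Otol1 was lower, and those of Otog to Otogl and of Otoa to Otogl higher, in both KO libraries than in both WT libraries.

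Otoa had the largest difference of the tested matrix genes. Its product, otoancorin, is a glycosylphosphatidylinositol-anchored protein related to mesothelin and stereocilin that holds acellular gels to the apical surface of non-sensory cells. Its levels were 2.11 and 1.75 TPM in WT, and 5.33 and 5.77 TPM in KO. The 2 genotypes were far apart compared with the spread inside each. The means were 1.93 ± 0.255 TPM (SD, n = 2) and 5.55 ± 0.312 TPM (SD, n = 2), a ratio of KO to WT of 2.88. On the log2 scale the difference was 1.16 (SE 0.18), with an unadjusted limma p of 0.0017, place 22 by p among the 14496 genes, and an adjusted p of 1.00. KO 1 exceeded WT 1 by 1.03 and KO 2 exceeded WT 2 by 1.30, and the estimate ran from 1.07 to 1.25 with any library left out. A difference of at least 1 with both KO libraries above both WT libraries was found in 0.297% of all tested genes.

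Because it adds 1 TPM to every value, the log2(TPM + 1) scale compresses a gene at this level. The Otoa difference was 1.48 with a pseudocount of 0.1 TPM and 0.61 with 5 TPM. The ratio of Otoa to Otogl TPM was 0.423 and 0.465 in WT, and 1.21 and 1.01 in KO. The ratio of Otoa to Epcam was 0.010 and 0.0088 in WT, and 0.030 and 0.031 in KO. The ratio of Otoa to each of the 20 epithelium markers was higher in both KO libraries than in both WT libraries. Otoa differed by more than any of these markers, so this count follows largely from the Otoa values and adds little to them. These ratios, too, were computed after the values were seen. GENCODE lists 7 Otoa transcripts, 4 of them coding, and the longest coding one spans 29 exons. A gene-level value does not separate them.

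**Figure D3:**
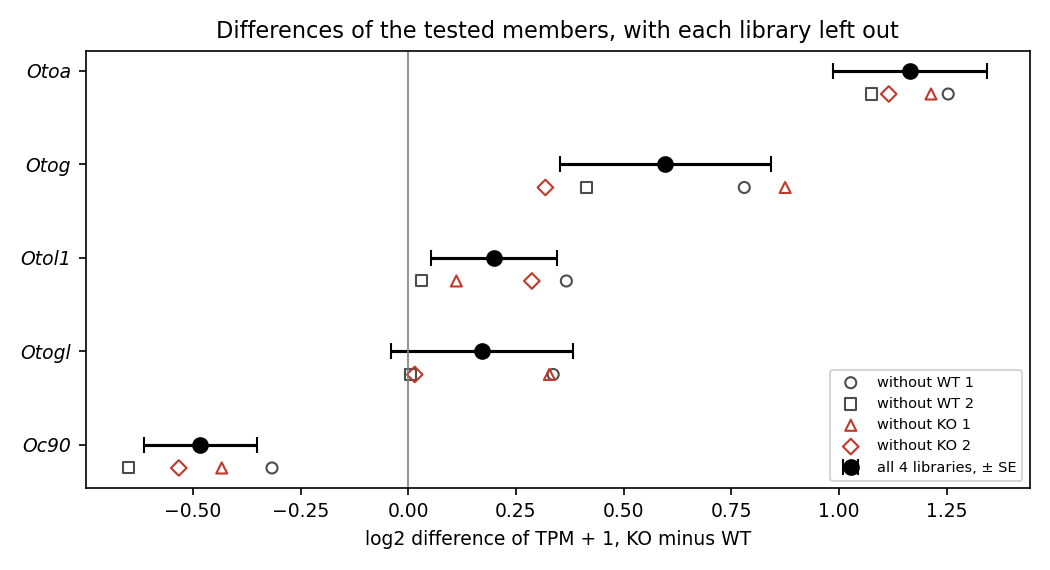
Log2 difference of TPM + 1, KO minus WT (horizontal axis), for the 5 tested matrix genes. Filled points with bars are the limma estimates and SE from all 4 libraries, and open symbols the estimates with 1 library left out. Otoa stayed between 1.07 and 1.25 and Oc90 between -0.65 and -0.32, while Otogl came close to 0.

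The tectorial membrane genes were barely detected. Tecta, which encodes alpha-tectorin, the main non-collagenous protein of the membrane, was at 0.446 and 0.675 TPM in WT and 1.02 and 0.797 TPM in KO. Both KO libraries were above both WT libraries, at levels under the filter of 1 TPM. Tectb, which encodes beta-tectorin, was listed at 0 in both WT libraries and at 0.075 and 0.071 TPM in KO 1 and KO 2. Ceacam16, a secreted adhesion-type protein that binds alpha-tectorin, was listed at 0 in WT 1, WT 2 and KO 2 and at 0.027 TPM in KO 1. Values this low, from a table that keeps no depth, do not show whether the gene is expressed, and no fold is given. The Ceacam16 exons share 380 bases with the opposite-strand gene Gm19345, which was at most 0.138 TPM. Those of Tecta share 304 bases with the opposite-strand gene Gm47629, and those of Tectb share 57 bases with Mir6715. Neither Gm47629 nor Mir6715 has values in these data.

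Coch and Otos belong to the fibrocytes and supporting tissue of the later cochlea. Coch, which encodes cochlin, was at 0.591 and 0.790 TPM in WT and 0.590 and 0.762 TPM in KO. It followed the replicate number more than the genotype. Otos, which encodes the small secreted protein otospiralin, was at 0.119 and 0.233 TPM in WT and 0.082 and 0.026 in KO. For Otos both KO libraries were below both WT libraries, at levels far under the filter of 1 TPM. Periotic mesenchyme markers, for comparison, had 15 of 17 log2 differences above 0 (median 0.26), against 61.6% of all genes. By limma, 2 were higher at an unadjusted p under 0.05 (2.09% of all genes) and 0 passed the adjusted threshold. Their sums are given above, and none was at 0.

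Genes that help otoconia form did not move as 1 group. Of 16 such genes 10 were tested, 5 with differences above 0 and 5 below (median 0.01). By limma, 0 passed the adjusted threshold and 0 had an unadjusted p under 0.05. Nox3, the catalytic NADPH oxidase required for otoconia, was at 3.94 and 2.41 TPM in WT and 5.79 and 4.20 in KO (log2 difference 0.53, SE 0.27). Its organizer subunit gene Noxo1 lay between 8.61 and 10.8 TPM in the 4 libraries, and the shared subunit gene Cyba at 36.6 and 46.2 in WT and 39.97 and 38.4 in KO. Car2, a carbonic anhydrase, was at 55.98 and 84.2 TPM in WT and 52.5 and 50.7 in KO (log2 difference -0.41, SE 0.20). Sparc, a calcium-binding matrix protein, was at 329 and 256 TPM in WT and 395 and 320 in KO (0.29, SE 0.17). Ap3d1, an adaptor subunit of vesicle sorting, differed by 0.16 (SE 0.11). Both KO libraries lay above both WT libraries for 2 of the 10, Nox3 and Ap3d1 (19.2% of all genes tested). They lay below for 1 of the 10, Car2 (10.5% of all genes tested). Noxo1, Cyba and Sparc overlapped between genotypes. Otop1, a proton channel needed for otoconia, was at no more than 0.308 TPM in any library.

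Other matrix genes of the tectorial membrane, cupula and early otic epithelium had small differences. Of 11 tested, 10 had differences above 0 (median 0.12), against 61.6% of all genes with a median of 0.035. By limma, 2 were higher at an unadjusted p under 0.05 (2.09% of all genes) and 0 passed the adjusted threshold. Col2a1, the fibrillar collagen of the tectorial membrane and of cartilage, was at 562 and 578 TPM in WT and 652 and 693 in KO (log2 difference 0.24, SE 0.071). Col9a2, a subunit of collagen IX, was at 134 and 120 TPM in WT and 157 and 145 in KO (0.25, SE 0.089). For Col9a1, the partner subunit, the difference was 0.17 (SE 0.11), and for the proteoglycan gene Vcan it was also 0.17 (SE 0.069). These genes are also expressed in mesenchyme around the vesicle, whose 17 markers summed to 1224 and 1045 TPM in WT and 1653 and 1147 TPM in KO, and its part in the difference was not tested. Strc, whose product stereocilin is a relative of otoancorin, was at no more than 0.118 TPM.

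Among 32 genes whose proteins share domains with the matrix proteins, 31 were in the table and 9 were tested. Of these, 6 had differences above 0 and 3 below (median 0.07), and by limma 0 passed with or without adjustment. Vit, which encodes vitrin and shares the LCCL and von Willebrand A domains of cochlin, was at 2.07 and 1.69 TPM in WT and 2.90 and 2.76 in KO (log2 difference 0.41, SE 0.20). Vwf, which shares von Willebrand D domains with the otogelins and marks endothelium, was at 10.6 and 7.78 TPM in WT and 7.65 and 6.54 in KO (-0.32, SE 0.19). C1ql1 (0.17, SE 0.20) and Crispld2 (0.10, SE 0.16) were the other members with the smallest p. The mesothelin genes Msln and Mslnl, the closest relatives of Otoa beside Strc, were at no more than 0.141 TPM.

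Prosensory and supporting cell genes, from the regions over which the gels later form, had 6 of 14 tested differences above 0 (median -0.02), and by limma 0 passed with or without adjustment. Myo6, an unconventional myosin of hair cells, was at 11.8 and 13.6 TPM in WT and 14.1 and 18.0 in KO. Fgfr3, a receptor gene of supporting cells, was at 4.27 and 4.93 TPM in WT and 6.32 and 5.44 in KO. Hey1, a Notch effector, was at 45.5 and 45.5 TPM in WT and 37.7 and 43.1 in KO, and the Notch modulator Lfng at 38.9 and 61.6 in WT and 33.2 and 40.5 in KO. Of the hair cell factors, Atoh1 was at no more than 0.178 TPM and Pou4f3 at no more than 0.483 TPM.

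**Figure D4:**
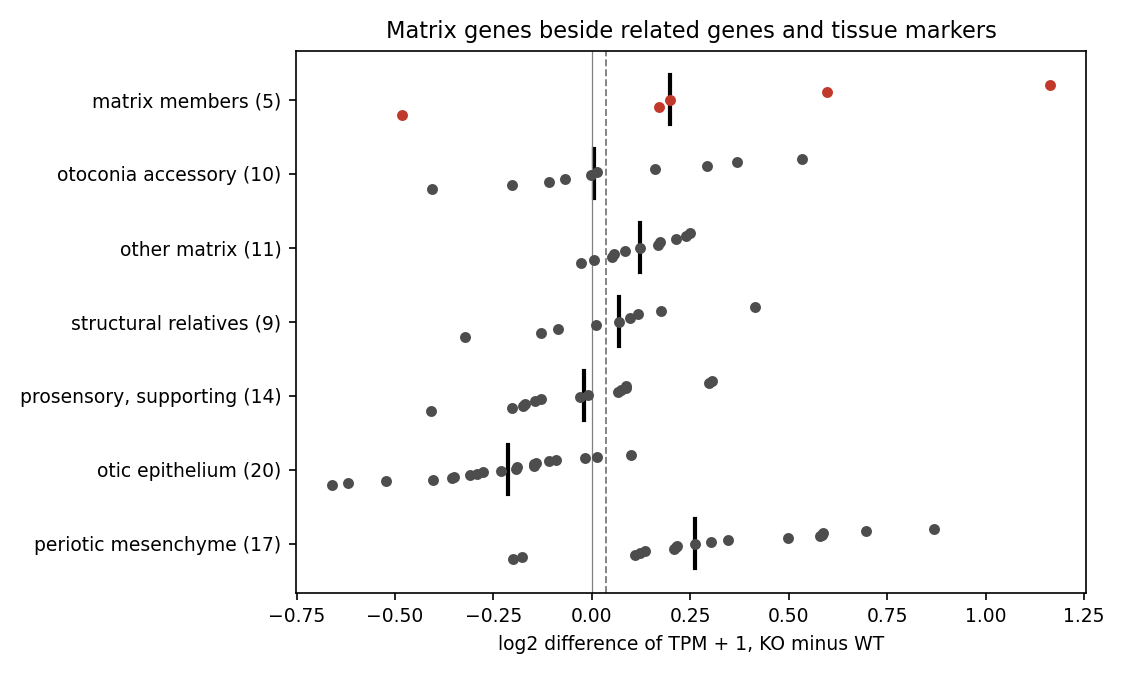
Log2 difference of TPM + 1, KO minus WT (horizontal axis), of each tested gene (points) in the 7 groups named on the vertical axis, with the number tested in brackets. Black bars are group medians and the dashed line is the median of all tested genes, 0.035. The 5 matrix genes spread from -0.48 for Oc90 to 1.16 for Otoa.

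The genes next to the matrix genes were examined as a check of position, taking the nearest protein-coding gene of the table on each side. Mettl9, a methyltransferase gene that ends 3320 bases before Otoa on the same strand, was at 184 and 156 TPM in WT and 183 and 163 in KO (log2 difference 0.02, SE 0.11). The ratio of Otoa to Mettl9 was 0.011 in both WT libraries, 0.029 in KO 1 and 0.035 in KO 2. Hs3st2, on the other side of Otoa, was at no more than 0.322 TPM. The difference of Mettl9 was close to 0 beside that of Otoa.

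Ush1c, which encodes the scaffold protein harmonin, lies 2483 bases from Otog on the opposite strand. It was at 10.6 and 12.1 TPM in WT and 10.7 and 18.4 in KO (log2 difference 0.29, SE 0.27). KO 2 was the highest library for Ush1c as for Otog, and the genotypes overlapped for Ush1c. The ratio of Otog to Ush1c was 0.930 and 0.616 in WT, and 1.02 and 0.898 in KO. Of the neighbours of Oc90, Efr3a was at 30.5 and 26.9 TPM in WT and 30.6 and 29.1 in KO, and Hhla1 at no more than 0.107 TPM. Myod1, beyond Otog, was at no more than 0.585 TPM, and Ptprq, next to Otogl, at no more than 0.012 TPM. The other tested neighbours (Ppp1r12a, Sc5d, Tbcel, Gpam, Scfd1, Strn3, Cops9 and Gpc1) differed by between -0.02 and 0.13 on the log2 scale, and by limma 0 of the tested neighbours passed with or without adjustment.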

How the data were processed

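Gene-level TPM of 4 libraries were deposited by the authors. Salmon 0.9.1 and the build GRCm38 come from the submitters' processing notes. The annotation, the summing of transcripts per gene and any pooling of runs are not stated there. Columns were assigned to libraries by name, and groups and numbers come from the sample titles. Gene IDs were matched by number to GENCODE M21, which named 34582 of 34866 genes.

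The 14496 genes averaging 1 TPM or more entered limma 3.58.1 (R 4.3.3), run on log2(TPM + 1). The model held genotype alone, the moderated variance followed mean level, and p-values were adjusted over all tested genes by Benjamini-Hochberg. The fit was tested on simulated data. Matrix genes under that level are given as values. The members and the lists of related and marker genes were chosen with earlier results of these data known. The named genes are the 10 members, Meis2, the neighbours, and up to 4 genes with the smallest p of each related list; others named were chosen after their values were seen. Alternatives were pseudocounts, filters, scalings, variance moderation, coding genes only, a replicate block and each library left out. Protein features, planned at the outset, were not analysed here.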

Additional observations from a re-analysis of the deposited data

How the results depend on the processing

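The 5 tested matrix genes kept their direction and did not pass the adjusted threshold in any of the 63 refits over 13 alternatives, where Otoa and Otogl were not tested at a mean of at least 5 TPM. Over all genes, the count passing was 0 with every pseudocount, scaling and variance setting, 125 with no filter, and from 0 to 10 with a library left out (2 without KO 1 and 10 without KO 2). The count at an unadjusted limma p under 0.05 was 507, against 1431 with no filter, 1178 with a replicate block, and from 336 (without WT 2) to 735 (without KO 1) with a library left out. Of the 507, 303 were higher and 204 lower; this split was 216 and 248 with median-of-ratios scaling and 202 and 258 with quantile normalization. The replicate numbers are not stated to mark a shared litter or day. Deviations of same-numbered libraries correlated at 0.423 across genes, and the replicate block called 0 genes and changed no call of a tested matrix gene. Without a filter, Tectb was among the 125 called (limma adjusted p = 0.023), on values at or under 0.075 TPM, and it was not called without WT 1 or WT 2, with the replicate block, with quantile normalization, with no trend or with coding genes only. The Coch difference, -0.01 with no filter, ranged from -0.10 to 0.0725 with a library left out (0.062 without KO 1), and that of Ceacam16 from 0 to 0.0385 (limma adjusted p = 0.011 without KO 2, on a single value of 0.027 TPM). TPM keeps no depth, so the error of low values is unknown.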

Other observations

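Several genes under the level of 1 TPM, named here after their values were seen, did not overlap between genotypes and had no test. Slc26a4, which encodes the anion exchanger pendrin of the endolymphatic duct, was at 0.221 and 0.057 TPM in WT and 0.687 and 1.40 TPM in KO. Foxi1, the transcription factor that acts upstream of Slc26a4 in the endolymphatic epithelium, was at 0.971 and 0.373 TPM in WT and 1.18 and 1.38 TPM in KO. Both were higher in the 2 KO libraries, and for Foxi1 WT 1 was close to KO 1. Of the other untested otoconia accessory genes, Noxa1 was also higher in both KO libraries, while Otop1, Atp6v1b1 and Atp6v0a4 overlapped. Atp6v1b1 was at 0.111 and 0.195 TPM in WT and 0.041 and 0.184 TPM in KO. The share of all genes under 1 TPM that did not overlap was not computed. Pla2g5, a secreted phospholipase A2 of the protein family to which the domains of otoconin 90 belong, was at 1.36 and 1.47 TPM in WT and 0.208 and 0.161 in KO.

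Cell types outside the epithelium and mesenchyme were present in all libraries. Erythroid markers were lower in KO in 10 of 10 tested genes (median -0.23), against 5573 of all 14496 genes tested. Their sums were 10674 and 25554 TPM in WT and 13082 and 14920 TPM in KO, so the genotypes overlapped in the sum. WT 2 had the highest sum and WT 1 the lowest. Both KO libraries lay below both WT libraries only for Tfrc, 1 of the 10 (10.5% of all genes). Macrophage markers were higher in 7 of 10, endothelial markers in 8 of 10, otic neuron markers in 11 of 15 and hindbrain markers in 5 of 6, against 61.6% of all genes tested, and 0 genes of these 5 lists passed the adjusted limma threshold. At an unadjusted limma p under 0.05 there were 0 erythroid, 0 macrophage, 2 endothelial, 1 neuron and 1 hindbrain genes, against 3.5% of all genes tested. The 2 endothelial genes went opposite ways, with Pecam1 lower in KO (log2 difference -0.46, SE 0.17) and Emcn higher (0.33, SE 0.097). The neuron gene Prph (0.51, SE 0.15) and the hindbrain gene Zic1 (0.60, SE 0.17) were higher.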
